A study of Mus musculus with 12 samples.

Results

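The genotype difference in the fasted liver was described from 4 of the 12 liver RNA-seq libraries of the study, 2 from fasted mice labelled MED13-LKO and 2 from fasted control mice. The libraries were chosen by their titles, and all 12366 genes whose normalized counts averaged 10 or more over the 12 libraries were tested, out of 16346 genes listed. Control mice were Med13fl/fl, and MED13-LKO mice carried the same floxed alleles with Alb-Cre, a transgene in which the albumin promoter drives Cre recombinase in hepatocytes and leaves the other cells of the liver with an intact gene. All 4 mice were C57BL6J, 12 weeks old, kept on a chow diet and fasted overnight for 16 h, and the RNA was total liver RNA. The other 8 libraries came from mice of the same genotypes and age that were refed for 4 h after a fast. They were given chow, with sucrose or fructose at 30% in the drinking water. The sources give the mice as replicate 1 and replicate 2 and state no litter or day. The p-values measure the spread between mice of the same group, estimated over all 12 libraries.

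Mediator is the large complex that carries signals from DNA-bound transcription factors to RNA polymerase II. MED13 tethers a separable kinase module, formed with MED12, CDK8 and cyclin C, to the core complex, and the module can block the binding of the polymerase. In the fasted liver, glucagon, glucocorticoids and fatty acids acting on PPARα switch on gluconeogenesis, amino acid breakdown and fatty acid oxidation, while genes of lipid synthesis are low.

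Several groups of genes with known roles in the liver differed between the genotypes. Major urinary protein genes, male-biased liver genes, urea cycle and amino acid enzymes and drug-metabolizing cytochromes P450 included many genes that were lower in the mice labelled MED13-LKO, and the fatty acid transporter gene Cd36, the acyl-CoA thioesterase genes Acot1 and Acot2 and the female-biased steroid hydroxylase gene Cyp2a4 were higher. In a limma fit of log2(normalized count + 1) with Benjamini-Hochberg adjustment over all genes tested, 1110 genes, 8.98% of them, had an adjusted p under 0.05 and are called here. Of these, 509 (4.12% of all genes) rose and 601 (4.86%) fell in the mice labelled MED13-LKO. The log2 fold change exceeded 1 in size for 350 called genes (2.83%), of which 200 rose and 150 fell, as the plot of fold change against level shows. Both mice of one genotype lay outside the range of the other in 57.1% of all genes tested, 3578 of them higher and 3481 lower in the mice labelled MED13-LKO, so that separation of the 4 mice alone was common.

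**Figure D1:**
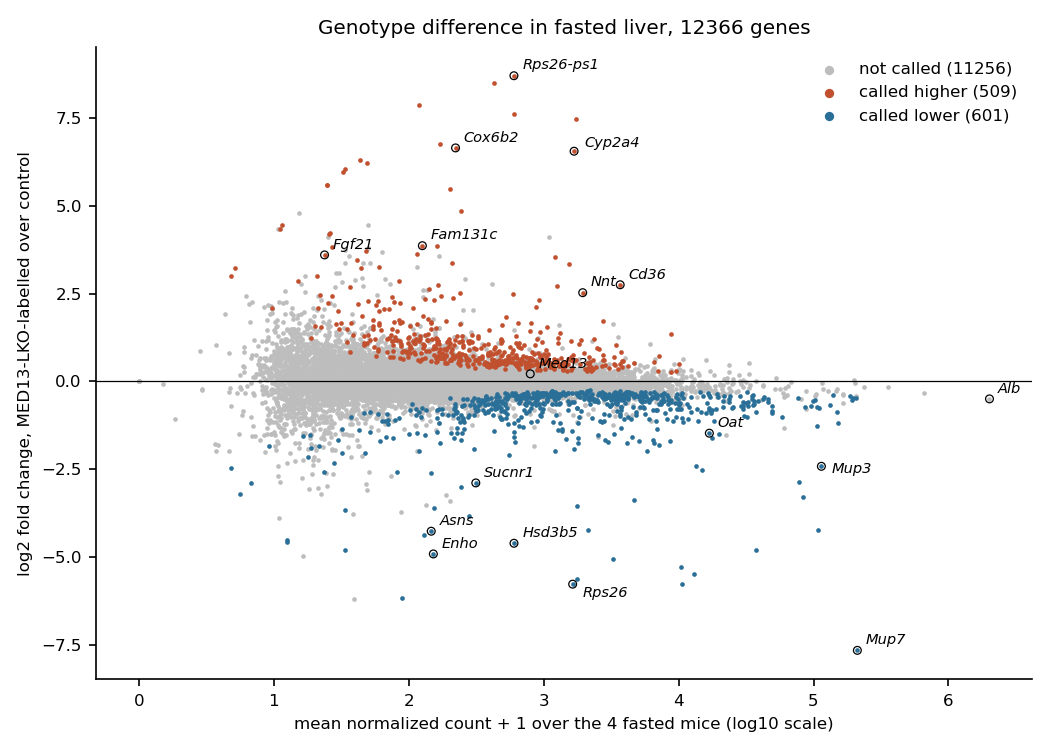
Log2 fold change between fasted MED13-LKO-labelled and fasted control mice (y axis) against the mean normalized count + 1 of the 4 fasted mice on a log10 scale (x axis), 1 point per gene tested, with genes called higher in orange, genes called lower in blue and some genes named in the text labelled. The 350 called genes with a change above 1 in size extend from a log2 fold change of -7.66 for Mup7 to 8.71 for Rps26-ps1.

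The deposited normalized counts summed to 23210000 and 24150000 in the control libraries and to 18740000 and 18600000 in the libraries labelled MED13-LKO, and an estimated 18120000 to 20550000 reads were counted on genes per library. The 100 genes with the highest values held 52.8% and 53.5% of the normalized counts in the control mice and 46.2% and 46.4% in the mice labelled MED13-LKO. Of the 100 genes with the highest mean normalized count, 50 fell and 0 rose, with a median log2 fold change of -0.45, whereas the median was -0.16 over ranks 101 to 1000, -0.01 over ranks 1001 to 5000 and 0.07 over the remaining 7366 genes. Values are given on the authors' scaling, on which the median log2 fold change of all genes was 0.013. When the libraries were rescaled to equal totals, an alternative chosen after the sums were seen, that median became 0.352 and calls became 3914 higher and 233 lower. On that scale 338 of the 350 genes were still called. Rescaling moves each log2 fold change by a similar amount, too small to turn the direction of genes chosen for changes above 1. Groups below whose direction turned are named as they come. In fits that leave out 1 mouse, a gene whose genotypes do not overlap cannot change direction. Each of the 4 mice was left out in turn, the remaining mouse of its group being assumed to vary like the other groups. This left 382 to 515 calls, the direction of all 1110 genes was the same in each of these fits, and 154 of the 350 genes (73 higher, 81 lower) were called in all 4 of them. The 382 calls were those without the MED13-LKO-labelled mouse 2.

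Med13, on chromosome 11 of GRCm38 from 86267033 to 86357602, had normalized counts of 674 and 796 in the control mice and of 808 and 899 in the mice labelled MED13-LKO. Both labelled mice were thus above both controls. The log2 fold change was 0.22 (SE 0.199, adjusted p = 0.537). The gene's summed transcripts do not show the loss that the label names, and the sources used here do not say which exons are floxed, so a deletion that leaves the remaining transcript in place cannot be seen in these values. For this reason the groups are called by their labels. At the protein level, the paper reports by Western blot that liver nuclei of MED13-LKO mice had almost no MED13 or MED12 left. Whether the sequenced mice were among those blotted is not stated. Med12, the scaffold of the kinase module, had 491 and 501 in the controls and 595 and 618 in the labelled mice (0.29, adjusted p = 0.468). Cdk8, the kinase, had 961 and 1031 against 900 and 992, and Ccnc, its cyclin, had 471 and 481 against 355 and 315 (-0.51, adjusted p = 0.121). The log2 fold change of Cdk8 was -0.08, and it turned to 0.27 with equal totals. Of the 7 kinase module genes tested, paralogs included, none was called, and the highest log2 fold change, 2.68 for the MED12 paralog gene Med12l, rested on 11.0 and 3.69 in the controls against 55.6 and 39.9 (adjusted p = 0.115). The 26 core Mediator genes ranged from -0.29 to 0.49 with a median of 0.00, and none was called. With equal totals 2 kinase module genes, Med13l and Med12l, and 8 core genes were called higher.

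Several genes of fatty acid uptake and oxidation that PPARα controls rose. Of 31 such genes tested, 9 rose and 0 fell, against 4.12% and 4.86% of all genes, and the median log2 fold change was 0.44. Both labelled mice were above both controls in 26 of the 31. For 22 of the 31 genes under 10% of 31-base stretches recur elsewhere, and 5 of the 22 rose. With control mouse 1, control mouse 2, MED13-LKO-labelled mouse 1 or mouse 2 left out, 3, 7, 5 and 4 of the 9 calls remained. Cd36 (chromosome 5, 17781690 to 17888801), which encodes a fatty acid translocase of the cell surface, had 863 and 1046 in the controls and 6365 and 6474 in the labelled mice. The genotypes were far apart, 6.73-fold in their means, and the mice within a genotype close together. The log2 fold change was 2.76 (SE 0.21, adjusted p = 6.39e-05), and it lay between 2.62 and 2.89 with each mouse left out. Acot1, the cytosolic acyl-CoA thioesterase, rose from 282 and 375 to 1857 and 2477 (2.72, SE 0.335, adjusted p = 0.00128). Acot2, its mitochondrial neighbour on chromosome 12, rose from 44.2 and 54.2 to 197 and 313 (2.32, adjusted p = 0.00175), and 22.8% of the 31-base stretches of Acot1 and 37.8% of those of Acot2 also occur in other genes. Both calls remained with any mouse left out.

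Among the microsomal fatty acid hydroxylases, Cyp4a31 rose from 131 and 197 to 571 and 1459, with the labelled mouse 2 well above mouse 1, and Cyp4a32 rose from 299 and 473 to 769 and 713. Their log2 fold changes were 2.50 (adjusted p = 0.0106) and 0.98 (adjusted p = 0.0181). Pex11a, a peroxisome proliferation factor, rose from 1469 and 1886 to 3178 and 3324 (0.96, adjusted p = 0.00881). Plin2, which coats lipid droplets, rose from 2367 and 2726 to 3985 and 4249 (0.70, adjusted p = 0.0186). Acadl, an acyl-CoA dehydrogenase of beta-oxidation, rose from 3612 and 3952 to 5378 and 5609 (0.54, adjusted p = 0.0189). With the replicate number as a block in the limma fit, Cyp4a32, Plin2 and Acadl were not called (adjusted p 0.0613 to 0.0778), while Cyp4a31 and Pex11a were. Cpt1a, which admits long-chain fatty acids to mitochondria, was not called, with 6754 and 8217 against 8720 and 8168 (0.18, adjusted p = 0.511).

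**Figure D2:**
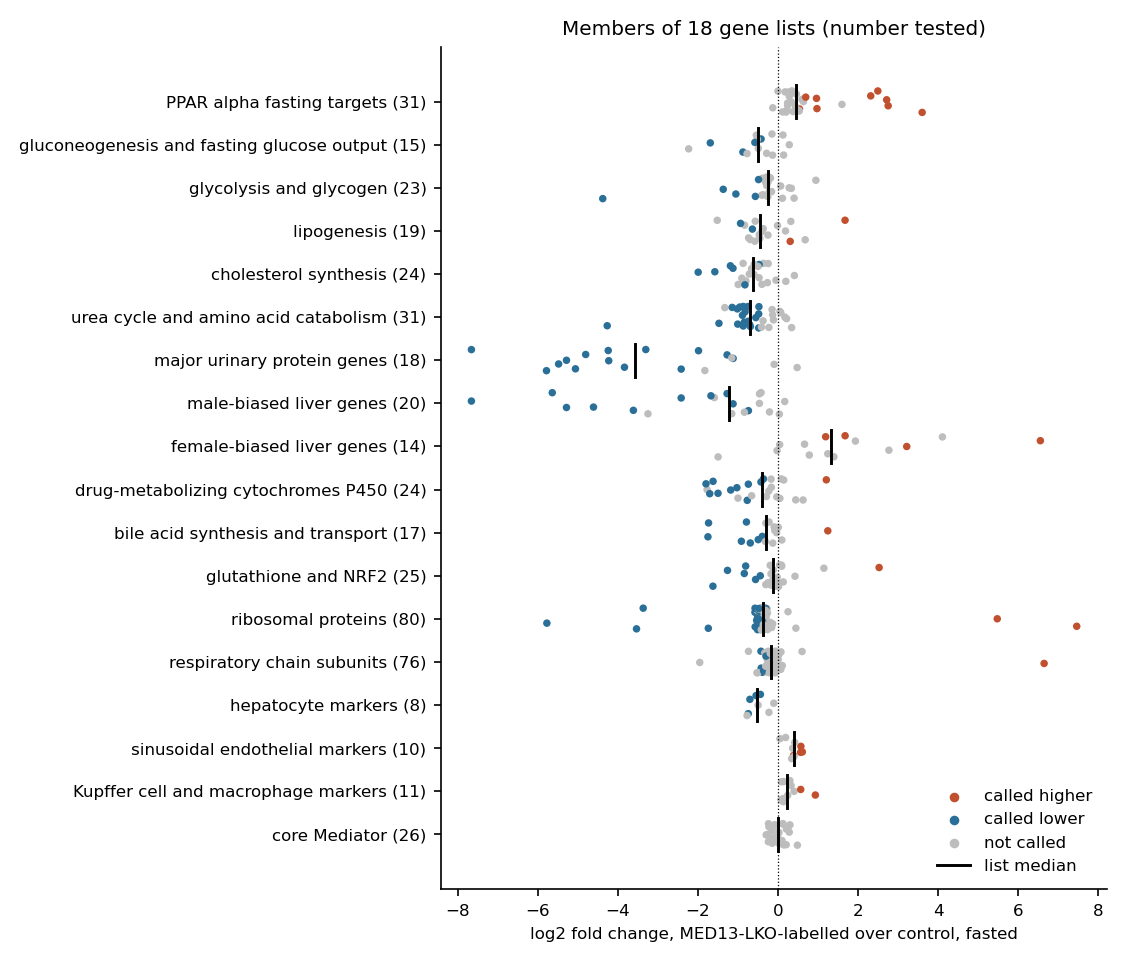
Log2 fold change (x axis) between fasted MED13-LKO-labelled and fasted control mice for the genes of 18 lists (y axis), 1 point per gene, orange where called higher, blue where called lower and grey where not called, with the median of each list as a bar. The major urinary protein genes (median -3.57), the male-biased genes (-1.21) and the urea cycle and amino acid genes (-0.69) lie to the left of 0, and the PPARα targets (0.44) and the female-biased genes (1.32) to the right.

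Fgf21, the fasting hormone of the liver, on chromosome 7 from 45613886 to 45615490, had 1.13 and 4.82 in the fasted controls and 50.7 and 34.4 in the labelled mice. The controls thus had only a few normalized counts, and the labelled mice lay above both. The log2 fold change was 3.60 (SE 0.672, adjusted p = 0.0103). The call was lost without control mouse 1 (adjusted p = 0.0744) and without the labelled mouse 1 (0.0681). The gene is a known target of PPARα and of ATF4, the transcription factor of the amino acid response. Asns, which encodes asparagine synthetase and is also a known ATF4 target, went the other way. It lies on chromosome 6 from 7675169 to 7693254 and had 397 and 161 in the controls but 9.94 and 15.0 in the labelled mice. The log2 fold change was -4.26 (SE 0.706, adjusted p = 0.00602), and the call was lost without control mouse 1 (adjusted p = 0.0555). Because the 2 genes moved in opposite directions, their promoters were searched for short motifs on both strands. The 250 bases before the RefSeq start of Fgf21, chr7:45615491-45615740 on the minus strand of GRCm38.p6, hold the amino acid response motif TGATGCAA, read here on the opposite strand, and the E-box CACGTG, both in capitals.
Fgf21: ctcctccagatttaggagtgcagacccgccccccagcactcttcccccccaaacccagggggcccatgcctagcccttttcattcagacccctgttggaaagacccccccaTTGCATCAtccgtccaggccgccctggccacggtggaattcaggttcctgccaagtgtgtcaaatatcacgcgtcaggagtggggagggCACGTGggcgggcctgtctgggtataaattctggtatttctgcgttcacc
The corresponding window of Asns held no exact match to either motif. Only exact matches were counted, and the window holds the near match TGATGAAA. Among 27025 gene symbols with a RefSeq window of 250 bases before and 50 after the start, the first listed window held TGATGCAA in 0.93% and CACGTG in 7.24%. A window was found for 9618 of the 12366 genes tested. TGATGCAA was in 0.77% of the 389 windows of genes that rose, in 1.07% of the 466 windows of genes that fell and in 0.62% of all windows of tested genes. For CACGTG these shares were 10.54%, 8.8% and 10.09%. The forkhead motif GTAAACA was in 1.8%, 3.86% and 2.58%, the sterol regulatory motif TCACCCCA in 1.54%, 1.5% and 1.42%, and the palindromic STAT motif TTCNNNGAA in 7.2%, 6.87% and 6.99%. In all of 27025 windows the last 3 motifs were in 3.55%, 1.47% and 8.47%.

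Of 15 genes of gluconeogenesis and glucose output, 4 fell and 0 rose, with a median log2 fold change of -0.49. The 4 calls became 2, 2, 4 and 2 with each mouse left out in the order above. Got1, the cytosolic aspartate aminotransferase that carries reducing power and carbon for gluconeogenesis, had 8213 and 7263 in the controls and 2198 and 2610 in the labelled mice. The means differed 3.22-fold (-1.69, SE 0.191, adjusted p = 0.000839). Fbp1, the fructose-1,6-bisphosphatase of the pathway, had 15886 and 15857 against 9443 and 7943 (-0.87, SE 0.114, adjusted p = 0.00171). Both labelled mice were below both controls in each gene, and both calls remained with any mouse left out. Slc37a4, the glucose-6-phosphate transporter, fell from 7435 and 7022 to 5345 and 4399 (-0.58, adjusted p = 0.0284), and Gpt, alanine aminotransferase, from 6204 and 6497 to 5291 and 4254 (-0.42, adjusted p = 0.0477). With equal totals neither Slc37a4 nor Gpt was called. The best-known fasting genes of the pathway were not called. Pck1, phosphoenolpyruvate carboxykinase, had 82070 and 105590 in the controls and 66545 and 66143 in the labelled mice (-0.49, adjusted p = 0.716). G6pc, the glucose-6-phosphatase, had 7865 and 10424 against 5887 and 9423, which overlap (-0.28, adjusted p = 0.581). The paper reports from qRT-PCR, with more mice per group and Ppib as the reference gene, that loss of MED13 lowered G6pc in fasting too.

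In glycolysis and glycogen metabolism, 5 of 23 genes fell and 0 rose, with a median of -0.25 that turned to 0.09 with equal totals. Of the 5 calls, 2, 2, 4 and 2 remained with each mouse left out. Ugp2, which makes the UDP-glucose from which glycogen is built, fell from 14530 and 14089 to 7115 and 6709 (-1.05, SE 0.0988, adjusted p = 0.000256). Slc2a2, the glucose transporter GLUT2, fell from 9451 and 10375 to 5147 and 2868 (-1.37, SE 0.221, adjusted p = 0.00541), with the labelled mouse 2 lowest. The largest difference of the list was in Ppp1r3g, a subunit that targets protein phosphatase 1 to glycogen, with 214 and 280 in the controls and 6.18 and 18.5 in the labelled mice. Its log2 fold change was -4.38 (SE 1.09, adjusted p = 0.0349), and the call was lost with any mouse left out (adjusted p 0.0877 to 0.176). In the sugar-fed mice of either genotype the gene was between 0 and 7.49. Gapdh (-0.56, adjusted p = 0.0171) and Pygl, the liver glycogen phosphorylase (-0.48, adjusted p = 0.0357), were lower as well, and neither was called with equal totals.

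Lipogenic genes did not move together. Of 19 tested, 2 rose and 2 fell, with a median of -0.45, and 1, 0, 1 and 0 of the 4 calls remained with each mouse left out. Acacb, the acetyl-CoA carboxylase whose product inhibits fatty acid entry into mitochondria, had 462 and 310 in the controls and 1265 and 1164 in the labelled mice (1.68, SE 0.356, adjusted p = 0.0188). It was called with control mouse 1 left out and not with any other mouse left out. Fads1, the delta-5 desaturase, was 6365 and 6280 against 8026 and 7631 (0.31, adjusted p = 0.0446). Tkfc, which phosphorylates the glyceraldehyde made from fructose, fell from 4784 and 4736 to 3033 and 2048 (-0.93, adjusted p = 0.0279), and Elovl5, a fatty acid elongase, from 2731 and 2616 to 1738 and 1698 (-0.64, adjusted p = 0.0124). These falls were not called with equal totals. Scd1, the stearoyl-CoA desaturase, had 40814 and 25996 against 13233 and 9808 (-1.52, adjusted p = 0.0886), and Fasn, fatty acid synthase, had 1290 and 1085 against 1050 and 699 (-0.47, adjusted p = 0.468).

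Cholesterol synthesis genes were lower in the mice labelled MED13-LKO, where 6 of 24 fell, 0 rose and 20 had both labelled mice below both controls. Their median was -0.63, and it was -0.29 with equal totals. Of the 6 calls, 1, 1, 5 and 1 remained without control mouse 1, control mouse 2, labelled mouse 1 and labelled mouse 2. Sc5d, a late desaturase of the pathway, fell from 8797 and 8694 to 5484 and 4455 (-0.82, SE 0.131, adjusted p = 0.00486) and kept its call in all of these fits. Fdft1, squalene synthase, fell from 2027 and 1714 to 808 and 271 (-1.99, adjusted p = 0.0195). Its log2 fold change was between -2.78 and -1.21 with each mouse left out. Msmo1, a sterol demethylation enzyme, fell from 6710 and 6742 to 2870 and 1774 (-1.58, SE 0.279, adjusted p = 0.00823), and Sqle, squalene epoxidase, from 2032 and 1608 to 1088 and 579 (-1.19, adjusted p = 0.0293). In each of these genes the labelled mouse 2 was the lowest of the 4.

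Most genes of the urea cycle and of amino acid breakdown fell. Of 31 genes tested, 19 fell, 0 rose and 23 had both labelled mice below both controls, against 4.86% of all genes falling. Falls were more frequent at high levels, with 201 among the 900 genes at ranks 101 to 1000 by mean normalized count. Whether this list fell more often than other genes of its level was not tested. The median log2 fold change was -0.69, and with equal totals it was -0.34, with 13 genes called lower and 3 higher. Of the 19 calls, 8, 13, 17 and 9 remained with control mouse 1, control mouse 2, labelled mouse 1 or labelled mouse 2 left out. Oat, ornithine aminotransferase, on chromosome 7 from 132557478 to 132576398, had 27508 and 22253 in the controls and 8922 and 8902 in the labelled mice. The labelled mice nearly coincided, 2.79-fold below the control mean (-1.47, SE 0.104, adjusted p = 4.84e-05). Hgd, homogentisate dioxygenase of tyrosine breakdown, fell from 13105 and 12449 to 6653 and 6100 (-1.0, SE 0.0777, adjusted p = 6.78e-05). Cth, the cystathionine lyase that makes cysteine, fell from 15626 and 13961 to 7126 and 6286 (-1.14, adjusted p = 0.000917). Mat1a, which makes S-adenosylmethionine in liver, fell from 80031 and 76768 to 42412 and 35535 (-1.01, adjusted p = 0.00341). Each of these 4 genes kept its call with any mouse left out.

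Within the urea cycle itself the falls were smaller than 1 on the log2 scale. Cps1, its first enzyme, had 131920 and 131930 in the controls and 89346 and 69806 in the labelled mice (-0.74, adjusted p = 0.00999). Ass1 had 70080 and 58106 against 36112 and 33059 (-0.89, adjusted p = 0.0192), and Otc had 12030 and 12841 against 9077 and 8818 (-0.47, adjusted p = 0.0199). Arg1, arginase, fell from 40570 and 40009 to 25051 and 24370 (-0.71, adjusted p = 0.00254), and Slc25a15, the mitochondrial ornithine carrier, from 6054 and 6626 to 3358 and 3191 (-0.95, adjusted p = 6.78e-05). Arg1 and Slc25a15 kept their calls with any mouse left out. Cps1 was called with the labelled mouse 1 left out and in no other of these fits (adjusted p 0.0636 to 0.0821), and Ass1 and Otc lost their calls with any mouse left out and with equal totals. The plot of single mice shows this pattern beside the lipid genes.

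**Figure D3:**
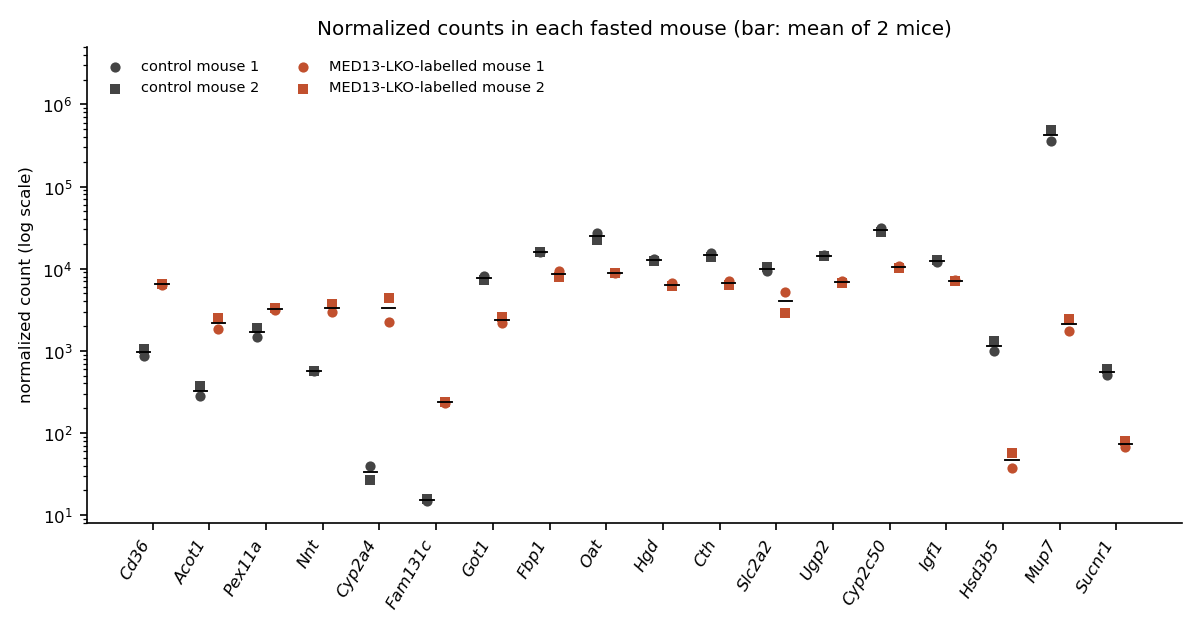
Normalized count on a log axis (y) of 18 genes in each of the 4 fasted mice, with control mice and MED13-LKO-labelled mice in separate colours and a bar at the mean of each genotype. The labelled mice lie above the controls for Cd36, Acot1, Pex11a, Nnt, Cyp2a4 and Fam131c and below them for the other 12 genes.

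The major urinary proteins, pheromone carriers that the male mouse liver secretes in large amounts, gave the largest falls. Summed over 21 genes of the cluster on chromosome 4, they made up 1086000 and 1560000 normalized counts in the controls and 154500 and 187800 in the labelled mice. Their share of all normalized counts was 5.59% in the controls and 0.92% in the labelled mice. Of 18 genes tested, 14 fell and 0 rose, with a median of -3.57, and 10, 9, 9 and 11 of the 14 calls remained with each mouse left out. Mup7 (chromosome 4, 60066469 to 60070475) had 358020 and 482990 in the controls and 1727 and 2454 in the labelled mice, 201-fold lower in the mean. Its log2 fold change was -7.66 (SE 0.805, adjusted p = 0.000526). These genes are near copies of each other, and 90.0% of the 31-base stretches of Mup7 occur in other genes, so that the split of reads between them is uncertain while the sum is less so. Mup3, which shares 30.1%, fell from 177190 and 208240 to 35323 and 36682 (-2.42, adjusted p = 0.00137). Mup20, also called darcin, fell from 116590 and 187520 to 58559 and 64257 (-1.27, adjusted p = 0.0437), a call lost with any mouse left out. Mup18 had 30571 and 39473 against 29826 and 35525, with no separation of the genotypes (-0.09, and 0.25 with equal totals).

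Other genes that are higher in male than in female mouse liver went the same way. Of 20 male-biased genes tested, 10 fell and 0 rose, with a median of -1.21, and 7, 6, 6 and 6 calls remained with each mouse left out. Several major urinary protein genes are also in this list. Hsd3b5, a hydroxysteroid dehydrogenase, fell from 984 and 1328 to 37.2 and 56.7, 24.6-fold in the mean (-4.61, SE 0.71, adjusted p = 0.00409). Selenbp2, a selenium-binding protein gene, fell from 3857 and 3104 to 70.6 and 66.5 (-5.64, adjusted p = 0.00162). A share of 59.3% of its 31-base stretches recurs in other genes, and the sum with its paralog Selenbp1 was 12200 and 10350 in the controls and 6278 and 5229 in the labelled mice. Serpina12, the adipokine vaspin, shares none with other genes and fell from 233 and 334 to 25.8 and 18.6 (-3.61, adjusted p = 0.00254). Slco1a1, an organic anion transporter, fell from 8468 and 10228 to 3868 and 4742 (-1.12, adjusted p = 0.0362), a call lost with any mouse left out.

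Some female-biased liver genes rose. Of 22 in the list 14 passed the filter, and 4 rose and 0 fell with a median of 1.32. A single call remained in each of the fits that left out a mouse. The call that remained was that of Cyp2a4, which encodes a steroid 15α-hydroxylase (chromosome 7, 26307169 to 26315088). It had 39.6 and 26.5 in the controls and 2256 and 4393 in the labelled mice, 101-fold higher in the mean (6.56, SE 0.367, adjusted p = 1.03e-05). Its paralog Cyp2a5 had 51916 and 50965 against 54261 and 55062 (0.09, adjusted p = 0.828). For Cyp2a4 58.9% of the 31-base stretches recur in other genes, and the sum of both genes was 51960 and 50990 in the controls and 56520 and 59460 in the labelled mice. Fmo2, a flavin monooxygenase, rose from 1207 and 1078 to 2965 and 2298 (1.19, adjusted p = 0.0272) and Acot3, a peroxisomal thioesterase, from 304 and 306 to 1004 and 953 (1.68, adjusted p = 0.045). A1bg was listed at 0 in both controls and at 9.29 and 7.43 in the labelled mice (adjusted p = 0.039).

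The labels used here give no sex for these mice. Eif2s3y, a Y-linked gene, had 1193 and 1334 in the controls and 874 and 1109 in the labelled mice, and the 4 Y-linked genes tested were present in all 4 mice with none called and a median of 0.00. Growth hormone acting through STAT5 maintains the sex difference of liver genes. In the 16 genes of that axis 0 rose and 2 fell, and both calls remained with any mouse left out. Igf1, the hormone made under growth hormone, fell from 11957 and 12692 to 7229 and 6979 (-0.79, SE 0.101, adjusted p = 0.0015), and Ghr, the growth hormone receptor, from 11820 and 12670 to 8522 and 7611 (-0.60, adjusted p = 0.00171). The median of the list was 0.26, and with equal totals it was 0.60, with 7 genes called higher and the count called lower still 2.

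Cytochromes P450 of drug metabolism fell in 10 of 24 cases and rose in 1, with a median of -0.39. With equal totals the median became -0.05, and 7 were called lower and 4 higher. For 9 of the 24 genes under 10% of 31-base stretches recur elsewhere. Among those 9, 1 fell and 1 rose, with a median of -0.17. How reads were split among the other P450 genes was not tested. Without control mouse 1, control mouse 2, labelled mouse 1 and labelled mouse 2, 8, 7, 9 and 7 of the 11 calls remained. Cyp2c50 had 31304 and 27709 in the controls and 10673 and 10209 in the labelled mice, 2.83-fold lower (-1.50, SE 0.112, adjusted p = 6.39e-05). Its neighbours Cyp2c54 (13674 and 12889 against 4336 and 3835) and Cyp2c37 (12382 and 9889 against 3124 and 3250) fell by 1.70 and 1.80 on the log2 scale. Cyp3a11, a main enzyme of drug oxidation, fell from 206050 and 212930 to 79253 and 107960 (-1.18, adjusted p = 0.00324). Cyp2e1, the ethanol-oxidizing enzyme, did not pass the test, with 179000 and 213760 against 202700 and 202300 (0.05, adjusted p = 0.877). Cyp2c55 rose from 118 and 73.5 to 192 and 244 (1.21, adjusted p = 0.0108).

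In bile acid synthesis and transport 7 of 17 genes fell and 1 rose, with a median of -0.30 that became 0.04 with equal totals. Of the 8 calls, 2, 2, 4 and 2 remained with each mouse left out. Cyp7a1, the rate-limiting enzyme of bile acid synthesis, had 10085 and 10134 in the controls and 3638 and 2489 in the labelled mice. The control values were nearly equal and the labelled mice lay 3.3-fold lower (-1.75, SE 0.372, adjusted p = 0.0189), but the call held only without the labelled mouse 1 among the fits that left out a mouse (adjusted p 0.0443 to 0.128). Cyp8b1, the sterol 12α-hydroxylase, fell from 4577 and 4590 to 1426 and 1333 (-1.73, adjusted p = 0.0165), with adjusted p-values of 0.0687 to 0.0924 when a mouse was left out. Slc27a5, which activates bile acids for conjugation, fell from 23658 and 24462 to 14181 and 13726 (-0.79, adjusted p = 0.000236) in each of these fits. Abcc4, an export pump of the sinusoidal membrane, rose from 48.9 and 66.7 to 144 and 130 (1.25, adjusted p = 0.037), a call lost with any mouse left out.

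Of 25 genes of glutathione metabolism and the NRF2 response, 6 fell and 1 rose, with a median of -0.13 that became 0.21 with equal totals. With each mouse left out 1, 3, 3 and 2 of the 7 calls remained. The gene that rose was Nnt, the nicotinamide nucleotide transhydrogenase that makes NADPH in mitochondria, on chromosome 13 from 119335448 to 119408997. It had 575 and 566 in the controls and 2952 and 3687 in the labelled mice, 5.82-fold higher (2.53, SE 0.234, adjusted p = 0.000236), and the call remained with any mouse left out. The C57BL/6J substrain is known to carry a deletion in Nnt. The paper states that the floxed line was backcrossed to this substrain, but it does not give the Nnt allele of the mice. Differences of genetic background between the groups were not tested and cannot be told apart from the Med13 genotype here. Of the 31-base stretches of Nnt 47.8% recur elsewhere in the annotation. Nearly all of these, 47.1% of its stretches, lie in a second annotated entry that is also named Nnt. That entry is not among the genes listed. The genes that fell included the glutathione S-transferase genes Gstm1 (22785 and 20004 to 11427 and 13073, -0.80, adjusted p = 0.0103) and Gstm3 (1143 and 707 to 435 and 323, -1.26, adjusted p = 0.00984). Gstm1 was not called with equal totals.

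Among coding genes with little sequence in common with others (under 10% of 31-base stretches found in another gene), several with low to moderate counts had large differences. Over the 9433 genes of this kind, 796 were called (8.44%), 239 of them above 1 in size. Enho, which encodes the secreted peptide adropin (chromosome 4, 41638144 to 41640324), had 343 and 243 in the controls and 11.4 and 6.50 in the labelled mice, 32.8-fold lower (-4.91, SE 0.361, adjusted p = 6.17e-05). Mme, the peptidase neprilysin, fell from 367 and 508 to 51.6 and 53.8 (-3.01, SE 0.183, adjusted p = 1.91e-05). Sucnr1, the succinate receptor (chromosome 3, 60081869 to 60087566), fell from 502 and 602 to 68.2 and 79.0, 7.51-fold (-2.89, adjusted p = 4.84e-05). Nlrp12, a member of the NLR family of innate immunity, fell from 165 and 186 to 2.06 and 0.928 (-6.18, SE 0.469, adjusted p = 6.39e-05). These 4 calls remained with any mouse left out. Adgrf1, an adhesion receptor, fell from 57.9 and 63.9 to 4.13 and 3.71 (-3.65, adjusted p = 0.033) and lost its call with any mouse left out. Pde5a, a phosphodiesterase of cyclic GMP, was listed at 19.3 and 26.5 in the controls and at 0 in both labelled mice, and Fam198a at 13.6 and 4.82 and at 0.

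In the other direction, Fam131c (chromosome 4, 141368220 to 141384175) had 14.7 and 15.7 in the controls and 230 and 240 in the labelled mice, 15.5-fold higher (3.87, SE 0.194, adjusted p = 4.6e-06). Cox6b2, a cytochrome c oxidase subunit best known from testis, rose from 1.83 and 5.70 to 402 and 475 (6.65, adjusted p = 4.84e-05). Igsf23, of the immunoglobulin superfamily, was listed at 0 and 8.43 in the controls and at 276 and 397 in the labelled mice (6.76, adjusted p = 0.000907). Tspyl5 rose from 4.54 and 1.21 to 45.4 and 52.0 (3.83, adjusted p = 0.00101) and Ptprt, a receptor tyrosine phosphatase, from 6.85 and 4.85 to 94.0 and 83.8 (3.73, adjusted p = 0.00556). These 5 genes kept their calls with any mouse left out. The zinc finger gene Zfp251 was listed at 0 and 4.82 in the controls and at 29.9 and 63.1 in the labelled mice, and its call (adjusted p = 0.00602) was lost without the labelled mouse 2.

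Some called genes were listed at exactly 0 in both controls. Prkaa1, the α1 catalytic subunit of AMPK, which is expressed in nearly all cells, was listed at 0 and 0 in the fasted controls and at 248 and 223 in the labelled mice (adjusted p = 0.0294). Among the fed controls it was listed at 339 and 360 with sucrose and at 0 and 268 with fructose, so that 0 also occurred beside a high value within a group. Rprd2, a protein that binds the tail of RNA polymerase II, was listed at 0 and 0 against 34.1 and 159 in the fasted mice (adjusted p = 0.00319), and with sucrose the zeros were in the labelled mice. Zfp791 was listed at 51.6 and 74.3 in the labelled mice, Ranbp3l at 13.9 and 26.9 and Cd1d2 at 120 and 50.1, each at 0 in both controls. Prkaa2, the other AMPK catalytic subunit, had 1567 and 1590 against 1775 and 1806 (0.18, adjusted p = 0.458).

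Among cytosolic ribosomal protein genes, 32 of 80 fell and 2 rose, both of the latter copies of Rps3a1, and 75 had both labelled mice below both controls. The median was -0.36, and with equal totals it was -0.02, with 5 genes called lower and 2 higher. With each mouse left out 7, 7, 7 and 9 of the 34 calls remained. For 9 of these 80 genes under 10% of 31-base stretches recur elsewhere, and 1 of the 9 fell, with a median of -0.34. That gene, Rpl8, had 5830 and 6043 in the controls and 4724 and 4734 in the labelled mice (-0.33, adjusted p = 0.0256). In 4 cases a ribosomal protein gene fell steeply while an intronless copy of it elsewhere in the genome rose from near 0. Rps26 (chromosome 10, 128624534 to 128626747) fell from 3176 and 3263 to 50.7 and 66.2 (-5.77, SE 0.175, adjusted p = 2e-07), and the processed pseudogene Rps26-ps1 (chromosome 8, 107439131 to 107439579) was listed at 0 and 7.19 in the controls and at 1137 and 1258 in the labelled mice (8.71, SE 0.873, adjusted p = 0.000366). Rps3a1 fell from 8455 and 8710 to 756 and 916 (-3.37), while its copy Rps3a2 on chromosome 14 went from 15.7 and 21.7 to 3274 and 3616 (7.47). Rpl34 fell from 3009 and 3489 to 283 and 275 (-3.53), while Rpl34-ps1 went from 5.53 and 4.79 to 1133 and 1277 (7.61). Rpl30 fell from 2660 and 2875 to 792 and 866 (-1.74), while Gm12191 was listed at 4.42 and 0 in the controls and at 802 and 897 in the labelled mice (8.51). All of these calls remained with any mouse left out, and the log2 fold changes of the copies, which were near or at 0 in the controls, depend on the pseudocount.

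The coding sequences of gene and copy are nearly identical, and most 31-base coding subsequences of each gene also occur in its copy. How well whole reads can be assigned to gene or copy was not tested. The aligned coding sequence of Rps26 differs from Rps26-ps1 at 2 of 345 bases (99.4% identity), and 254 of its 315 subsequences of 31 bases, 80.6%, also occur in the copy. The first 90 coding bases are shown as an example from GENCODE M21 on GRCm38, 5′ to 3′, each on its own sense strand, with the mismatch in capitals.
Rps26: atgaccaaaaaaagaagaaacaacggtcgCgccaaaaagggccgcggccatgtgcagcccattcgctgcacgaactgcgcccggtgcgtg
Rps26-ps1: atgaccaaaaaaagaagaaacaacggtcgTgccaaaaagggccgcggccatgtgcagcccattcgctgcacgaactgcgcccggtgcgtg
Rps3a1 differs from Rps3a2 at 4 of 792 bases (99.5%), with 84.8% of its coding subsequences in the copy. Bases 579 to 668 of the coding sequence hold 2 of the mismatches.
Rps3a1: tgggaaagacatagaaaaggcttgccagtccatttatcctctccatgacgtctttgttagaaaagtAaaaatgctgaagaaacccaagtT
Rps3a2: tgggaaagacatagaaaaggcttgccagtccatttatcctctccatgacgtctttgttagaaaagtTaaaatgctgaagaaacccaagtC
For Rpl34 and Rpl34-ps1 the mismatches numbered 2 in 353 bases, and for Rpl30 and Gm12191 they numbered 1 in 345. The sums of gene and copies were lower in the labelled mice, but far less so than the genes alone. Rps26 with its copy summed to 3176 and 3270 in the controls and to 1187 and 1325 in the labelled mice, a log2 ratio of means of -1.36. The sums gave -0.88 for Rps3a1 with Rps3a2 and Rps3a3, -1.13 for Rpl34 and -0.72 for Rpl30. The summed falls were larger than the median of the ribosomal list, but the sums leave out other listed genes that share these sequences. Gm10154 holds 90.1% of the 31-base stretches of Rpl34-ps1, and Rpl30-ps9 holds 96.9% of those of Gm12191. Gm13408 holds 69.3% of those of Rps3a2. Whether a fall remains once all such genes are added was not tested.

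**Figure D4:**
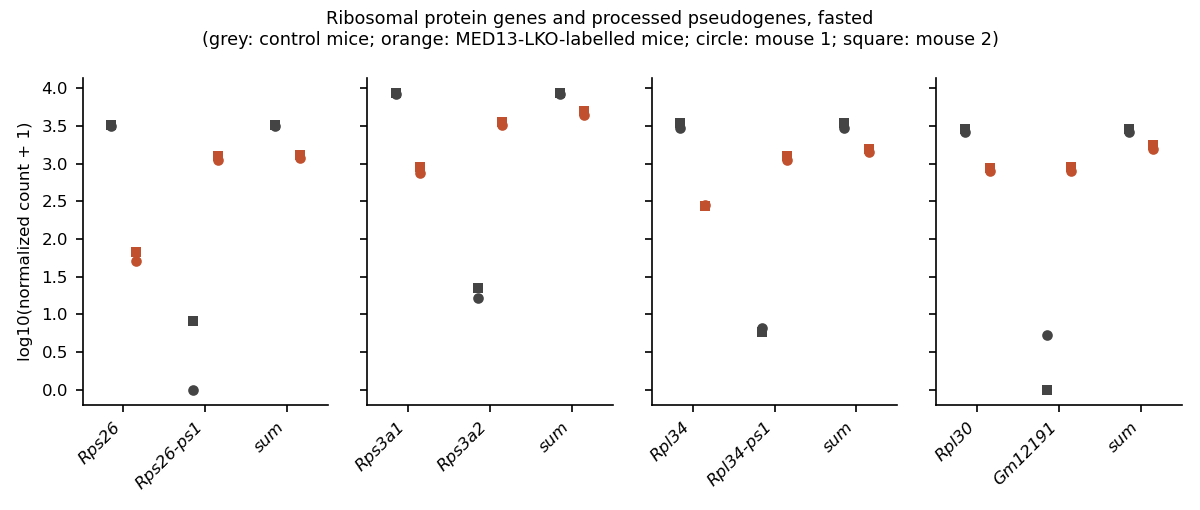
Log10(normalized count + 1) in each of the 4 fasted mice (y axis) for 4 ribosomal protein genes, a processed copy of each, and the sum of gene and copies (x axis), with control and MED13-LKO-labelled mice in separate colours. In each set the gene is lower and the copy higher in the labelled mice, and the sum is lower by less than the gene alone.

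Of the 13 protein genes of mitochondrial DNA, 7 fell and 0 rose, with a median of -0.41, and with equal totals the median was -0.07 and 1 was called. A single call remained in each of the fits that left out a mouse, that of mt-Nd3, a subunit of complex I, which fell from 26772 and 26780 to 8652 and 8756 (-1.62, adjusted p = 9.17e-05). Other annotated genes hold 98.1% of its 31-base stretches. Over all genes tested 4.86% fell and 4.12% rose, shares to set beside the counts of this list and of those that follow. Genes with high levels fell more often than that. Respiratory chain genes of the nucleus fell in 7 of 76 cases and rose in 1, Cox6b2, with a median of -0.16 that became 0.19 with equal totals, and 3, 1, 3 and 1 of the 8 calls remained with each mouse left out. Among 21 secretory pathway chaperones 2 fell, Ddit3, a transcription factor of the unfolded protein response, from 168 and 175 to 97.2 and 96.3 (-0.82, adjusted p = 0.0089) and Ppib, a prolyl isomerase of the endoplasmic reticulum that served as the reference gene of the qRT-PCR, from 4196 and 4160 to 2723 and 2724 (-0.62, adjusted p = 0.0223). Ppib was not called with equal totals, nor was Hsp90ab1 (-0.32, adjusted p = 0.0371), the 1 called gene of 14 heat shock genes, whose direction turned. With each mouse left out, 0, 0, 1 and 0 of the chaperone calls remained, and the heat shock call was lost. Of the 13 qRT-PCR genes, which are no independent evidence, Ppib was the only one called, and their median was -0.16 (0.18 with equal totals).

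Acute phase genes gave 1 rise and 3 falls in 20, with a median of -0.14 (0.20 with equal totals). Saa4, a constitutive serum amyloid A, rose from 4345 and 5463 to 14613 and 10621 (1.35, adjusted p = 0.000697), and Serpina3n, a protease inhibitor, fell from 10143 and 11741 to 6768 and 5859 (-0.79, adjusted p = 0.00263). Orm2, an acute phase glycoprotein, fell from 403 and 339 to 152 and 135 (-1.36, adjusted p = 0.0174), a call lost with any mouse left out. In 21 interferon and antigen presentation genes 2 rose and 1 fell, with a median of 0.09. H2-D1, a class I heavy chain, rose from 7849 and 8984 to 11234 and 12321 (0.49, adjusted p = 0.0282), while B2m, its light chain, fell from 35291 and 35952 to 28685 and 28960 (-0.31, adjusted p = 0.0324), a direction that turned to 0.04 with equal totals. The 3 interferon calls were lost with any mouse left out, and 2, 2, 3 and 2 of the 4 acute phase calls remained. The only called gene of 17 in the circadian clock was Bhlhe41, a repressor of the clock, which rose from 20.3 and 16.1 to 60.6 and 78.0 (1.87, adjusted p = 0.0334). The only called gene of 12 in the cell cycle was Cdkn1a, the inhibitor p21, which rose from 60.8 and 70.8 to 442 and 266 (2.37, adjusted p = 0.0382). Both of these calls were lost with any mouse left out.

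Markers of the liver's cell types differed between the genotypes as well, and in whole liver fewer cells of a type and less RNA per cell cannot be told apart. The 8 hepatocyte markers summed to 3027000 and 2949000 normalized counts in the controls and to 2101000 and 2099000 in the labelled mice. Of these, 4 fell (Asgr1, Cps1, Ttr and Serpina1a), with a median of -0.52 that was -0.18 with equal totals. Asgr1, the asialoglycoprotein receptor of hepatocytes, had 9349 and 9852 in the controls and 7412 and 6784 in the labelled mice (-0.44, adjusted p = 0.00945). Sinusoidal endothelial markers summed to 6589 and 6628 against 8714 and 8806, and 4 of 10 rose with a median of 0.40. Kdr, the VEGF receptor of endothelium, rose from 814 and 790 to 1178 and 1212 (0.58, adjusted p = 0.00816), and Stab2, a scavenger receptor, from 918 and 733 to 1271 and 1164 (0.57, adjusted p = 0.0345). Kupffer cell and macrophage markers summed to 6170 and 6480 against 7336 and 8026, and 2 of 11 rose, Cd5l (1313 and 1341 to 1865 and 2083, 0.57, adjusted p = 0.0338) and Marco (108 and 125 to 201 and 247, 0.94, adjusted p = 0.038). Stellate cell and matrix markers, 11 in the table, summed to 6773 and 6534 against 5573 and 5968, and 2 of the 10 tested fell, Des (-0.86, adjusted p = 0.0418) and Col3a1 (-0.71, adjusted p = 0.00903), neither with equal totals. None of the 4 cholangiocyte, 2 lymphocyte and neutrophil and 5 blood cell markers that passed the filter was called. Summed over all their genes in the table, those below the filter included, the values per mouse were 547 to 743 for 5 cholangiocyte genes, 196 to 312 for 10 lymphocyte and neutrophil genes and 10100 to 14900 for 5 blood cell genes. Of 4 adipocyte and pancreas markers listed, 3 were at 0 in all fasted mice and the sum per mouse was 0 to 2.79. With control mouse 1, control mouse 2, labelled mouse 1 or labelled mouse 2 left out, 1, 0, 2 and 0 of the 4 hepatocyte calls and 2, 0, 1 and 0 of the 4 endothelial calls remained, and 0 of the Kupffer and stellate cell calls. The part of these shifts in the gene groups above was not tested.

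Much of the genotype difference of the fasted mice was also seen in the sugar-fed mice, which share no library with them. Because 1 fit set the spread of each gene for all 3 states, the calls of the 3 states are not independent. Of the 200 genes that rose above 1 in the fasted state, 106 (53%) rose with sucrose and 110 (55%) with fructose, where 2.7% and 3.74% of all genes rose, and 89 rose in all 3 states. Of the 150 that fell, 81 (54%) fell with sucrose and 91 (60.7%) with fructose, where 3.33% and 3.95% of all genes fell, and 70 fell in all 3. The median log2 fold change of the 200 genes was 1.50 when fasted, the state in which they were chosen, 1.04 with sucrose and 1.16 with fructose. For the 150 it was -1.51, -1.03 and -1.04. Of the 350 genes, 1 was called in the opposite direction with sucrose (Rprd2) and 1 with fructose (Nudt16l1), each listed at 0 in both mice of one genotype there, so that no fold is given. Cd36 had a log2 fold change of 2.76 fasted, 2.56 with sucrose and 2.55 with fructose, and Sucnr1 and Mme were likewise called in all 3 states. The plot of single genes over the 3 states shows Cd36 and Sucnr1 beside genes whose fasted difference was not matched in the fed mice.

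**Figure D5:**
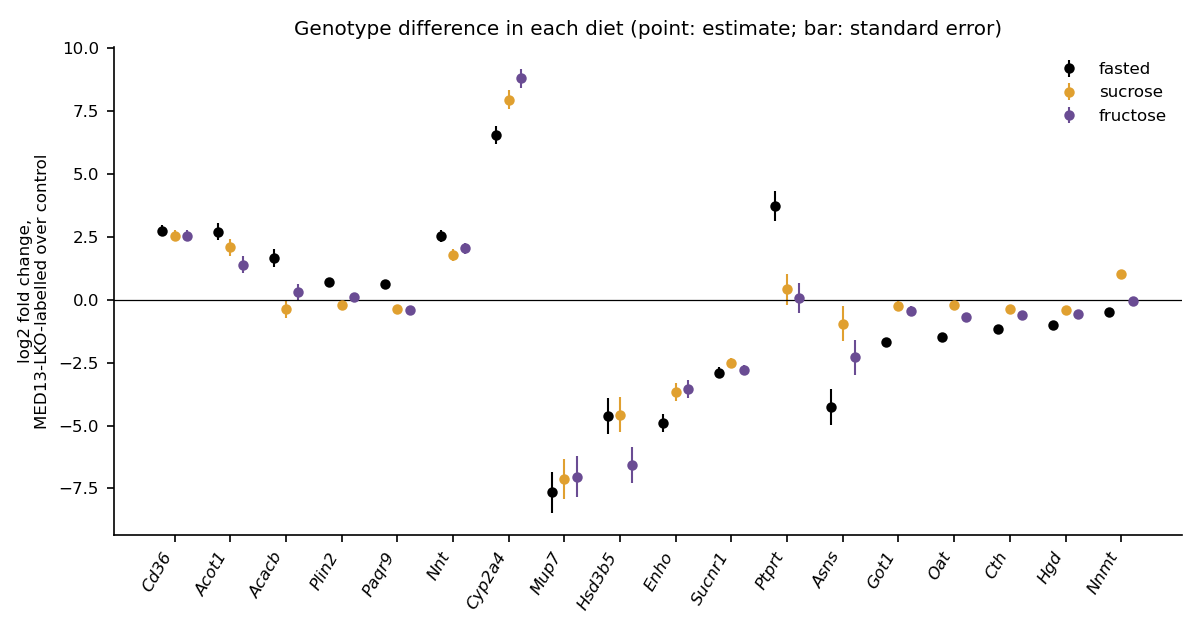
Log2 fold change between MED13-LKO-labelled and control mice with its standard error (y axis) for 18 genes (x axis) when fasted, with sucrose and with fructose, 1 colour per state and 2 mice per genotype and state. Cd36, Nnt, Cyp2a4, Mup7, Hsd3b5, Enho and Sucnr1 lie on the same side in all 3 states, while Oat and Got1 lie far below 0 in the fasted state and nearer to 0 when fed, and Paqr9 and Nnmt change side.

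A test of the fasted difference against the mean of both fed differences called 5 genes, 0.0404% of those tested, and 1173 had an unadjusted p under 0.05 in limma. Oat was one of them. It fell by 1.47 when fasted, against -0.19 with sucrose (adjusted p = 0.324) and -0.70 with fructose (adjusted p = 0.00395), a difference of -1.03 (adjusted p = 0.0405). The fasted controls stood apart, at 27508 and 22253 against 15200 and 15719 with sucrose, while the labelled mice had 8922 and 8902 against 13796 and 13218. Paqr9, a progestin and adipoQ receptor family member, had 1298 and 1411 in fasted controls and 2140 and 2038 in fasted labelled mice (0.63, adjusted p = 0.00281), whereas it was lower in the labelled mice with sucrose (-0.35) and fructose (-0.42), a difference of 1.01 (adjusted p = 0.0371). Nnmt, the nicotinamide N-methyltransferase, went from 3602 and 3196 to 2489 and 2382 when fasted (-0.48, adjusted p = 0.0115), rose by 1.03 with sucrose and had -0.05 with fructose, a difference of -0.97 (adjusted p = 0.0371). Nudt16l1 was listed at 30.5 and 15.7 in fasted controls and at 0 in both fasted labelled mice. The fifth, the immunoglobulin segment Ighv1-50, had 33.3 and 32.4 against 35.3 and 32.0 when fasted and was called for its values with sucrose. With equal totals Paqr9 alone passed this test, and with a mouse left out 0 to 7 genes did, 0 of them without the labelled mouse 2. The fasted fall of Nnmt was not called with equal totals or without control mouse 1 or the labelled mouse 2. The other steep fasted differences did not pass this test. Asns had -0.94 with sucrose and -2.28 with fructose, Got1 had -0.23 and -0.42, Fgf21 had 0.28 and 0.79, and Ptprt had 0.42 and 0.07. Urea cycle and amino acid genes had a median of -0.69 when fasted and -0.25 with sucrose, and whether that list differed between the states was not tested.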

How the data were processed

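Liver RNA-seq libraries were grouped by the sample titles into fasted control, fasted MED13-LKO and 4 sugar-fed groups, 2 mice each. The signal values analysed are normalized counts as the authors deposited them, and no raw counts were used. The submitters' processing notes name Trim Galore 0.6.5, kallisto 0.46.0, DESeq2 1.24.0 and mm10. Kallisto distributes reads among transcripts by short subsequences, so near-identical genes can share reads. In the 2652 genes with 1 transcript, 87.3% to 99% of values under 20 were whole multiples (within 0.05) of a step per library, against 51.9% to 58.9% over all genes. Depth was estimated from this step, and tests on counts were not run.

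Values were transformed as log2(normalized count + 1), a scale that shrinks the changes of genes with low values, and fitted in limma 3.58.1 (R 4.3.3) with 1 term for each of the 6 groups and a variance trend, so that all 12 libraries set the spread. Genes with a mean of at least 10 were tested, and a Benjamini-Hochberg adjusted p under 0.05 was called. Contrasts compared genotypes within each diet, and the fasted difference with the mean of both fed differences. The fit was tested on simulated data. Of the identifiers, 16222 were found in GENCODE M21 (GRCm38, the same assembly as mm10), which gave positions and the share of each gene's 31-base subsequences that occur in other genes. Promoter windows came from RefSeq on GRCm38.p6. Python 3.11.15, NumPy 2.4.6, pandas 2.3.3 and matplotlib 3.10.9 were used.

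The gene lists and the members described were chosen with earlier results of these data known. Named were members of each list with the largest called changes (or, with none called, the highest means), the 10 highest and 10 lowest called fold changes among all genes and among coding genes with under 10% shared subsequences, and genes called in the contrast of fasted and fed. The major urinary protein, mitochondrial and qRT-PCR lists were added later. Alternatives were pseudocounts of 0.1 and 10, no filter, equal 75th percentiles, equal totals, the 4 fasted libraries alone, the replicate number as a block, genes with low sharing, and each mouse left out. Some genes of the lists are not reported here.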

Additional observations from a re-analysis of the deposited data

Results flagged for a closer look

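In 5 genes the genotype difference of the fasted mice differed from the mean of the differences in sucrose- and fructose-fed mice, by the contrast of the limma fit (Benjamini-Hochberg adjusted p under 0.05 over 12366 genes). The difference of log2 fold changes, fasted minus fed, was -1.03 for Oat (adjusted p = 0.0405), -0.97 for Nnmt (adjusted p = 0.0371), 1.01 for Paqr9 (adjusted p = 0.0371), -5.57 for Nudt16l1 (adjusted p = 0.0492) and -3.37 for Ighv1-50 (adjusted p = 0.0405). In Oat both fasted labelled mice, at 8922 and 8902, were below every other mouse of the study, and both fasted controls were above every other mouse. In Paqr9 the 4 fasted mice were the lowest of the 12, and within them the labelled mice were the higher. Nudt16l1 was listed at 0 in both fasted labelled mice and in both fructose-fed controls, and Ighv1-50 was at 1.02 and 0 in the sucrose-fed controls against 190 and 196 in the sucrose-fed labelled mice, so these 2 differences rest on values at or near 0 and their size is set in part by the pseudocount.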

How the results depend on the processing

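The 1110 calls became 502 with the replicate block, 4147 with equal totals and 382 to 515 with each mouse left out. The 350 calls above 1 in size became 755 with equal totals and 209 to 247 with each mouse left out. Of these 350, 234 were still called with the block and 273 with the 4 fasted libraries alone. The log2 fold changes of these 2 fits equal those of the main fit, so no direction could turn in them. All 350 also kept their direction with a mouse left out, but they had been chosen for changes above 1 in size, which seldom turn. The 5 genes of the contrast between fasted and fed became 0 with the block, 1 with equal totals and 0 to 7 with each mouse left out. The share of calls that were higher, 45.9%, became 94.4% with equal totals and was 41.7% to 52.3% in the other fits. The cause of the smaller counts was not tested, beyond the loss of 1 mouse or of degrees of freedom that these fits entail. Same-numbered fasted mice did not deviate together (correlation of deviations -0.0181), so the number was not taken to pair them.

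Directions turned in genes with small differences. With each mouse left out the log2 fold change ranged from -0.621 to 0.058 for G6pc, from -0.278 to 0.091 for Mup18, from -0.078 to 0.178 for Cyp2e1 and from -0.038 to 0.099 for Ighv1-50. With equal totals it became 0.267 for Cdk8, 0.061 for G6pc, 0.249 for Mup18, 0.037 for B2m and 0.027 for Hsp90ab1. Over 124 named genes and all alternatives, 1075 values kept direction and call, 273 lost the call, 6 gained one and 10 turned. Depth limits the genes listed at or near 0 in a group, whose fitted differences depend on the pseudocount.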
